A study of Mus musculus with 7 samples.

Results

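The 37 genes described here encode proteins of the complement system. They are the rows of the count table whose symbol stands in a list of complement genes, and all 37 of the list were found among the 14889 genes of the table. The list was drawn up around Cfd, because Cfd differed between the groups in an earlier analysis of these data. The difference between the groups was therefore used in choosing the members and is given as a description. All mice were ApoE-/- on the C57BL/6 strain, aged 4 months, and had eaten a Western diet for 3 months. Lack of apolipoprotein E slows the clearance of remnant lipoproteins and leads to high plasma cholesterol, and both groups share it. The saline group had 4 mice and the PX-478 group 3, dosed at 40 mg/kg while on the diet, both by intraperitoneal injection on a schedule the labels call bi-weekly. PX-478, the N-oxide of the alkylating drug melphalan, blocks HIF-1α, a transcription factor that low oxygen stabilises. RNA came from whole frozen liver, so fewer cells of a type and less RNA per cell cannot be told apart.

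Complement is a cascade of plasma proteases and pattern-binding proteins that coats particles for uptake, recruits leukocytes and forms pores in membranes. The classical pathway starts from C1q, the lectin pathway from mannose-binding lectins, ficolins and collectins, and the alternative pathway from C3 itself with factor B and factor D. All converge on C3 and C5 and end in the membrane attack complex. Hepatocytes make most of these plasma proteins, macrophages make C1q and properdin, and factor D, also called adipsin, is best known as a product of fat cells.

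Each library held 10285776 to 17257304 counted reads. Mitochondrially encoded genes took 27.1% to 31.9% of them in saline and 36.7%, 22.4% and 32.6% in PX-478 replicates 1, 2 and 3. The hepatocyte markers were high in every library: the summed level of the 9 analysed here ran from 36823 to 51985 CPM in the saline livers and from 33027 to 40042 CPM in the PX-478 livers (CPM is the read count scaled to the TMM-adjusted size of the library). All 37 members passed the filter on low counts and were among the 13693 genes tested.

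The promoters shown are those of Cfd, the member that differed most, and of C4bp and Cfhr2, made by hepatocytes, whose levels did not overlap between the groups. Each is a RefSeq sequence of build GRCm38.p6 from 250 bases before to 50 after an annotated start, on the gene's own strand. Capitals mark the core of the hypoxia response element (ACGTG or GCGTG) and a STAT pattern (TTCNNNGAA), searched on both strands.
Cfd, chr10:79890603-79890902, plus strand: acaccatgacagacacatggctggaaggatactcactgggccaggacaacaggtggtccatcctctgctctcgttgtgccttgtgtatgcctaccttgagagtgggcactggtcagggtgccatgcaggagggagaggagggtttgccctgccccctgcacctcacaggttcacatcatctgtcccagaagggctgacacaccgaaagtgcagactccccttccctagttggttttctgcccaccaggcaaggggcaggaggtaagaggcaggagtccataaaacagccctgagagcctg
C4bp, chr1:130661569-130661868, minus strand: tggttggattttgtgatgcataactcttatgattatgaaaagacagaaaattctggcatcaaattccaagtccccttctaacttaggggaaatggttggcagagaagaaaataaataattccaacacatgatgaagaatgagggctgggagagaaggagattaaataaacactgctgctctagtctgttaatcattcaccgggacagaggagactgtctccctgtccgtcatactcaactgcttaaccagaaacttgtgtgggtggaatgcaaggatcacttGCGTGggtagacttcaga
Cfhr2, chr1:139858650-139858949, minus strand: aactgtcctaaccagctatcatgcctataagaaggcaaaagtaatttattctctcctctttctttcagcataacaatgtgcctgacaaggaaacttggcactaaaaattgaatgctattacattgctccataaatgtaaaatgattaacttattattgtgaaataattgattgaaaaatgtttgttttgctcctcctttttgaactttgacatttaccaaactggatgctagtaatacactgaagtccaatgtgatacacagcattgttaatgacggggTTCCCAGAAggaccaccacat

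None of these patterns stands in the Cfd window. In C4bp a GCGTG begins 33 bases into the transcript, and in Cfhr2 a TTCNNNGAA begins 30 bases into it. The promoter table held 30 promoters of 28 members. A hypoxia core stood in 9 of the 30 (30%), and in 43.8% of all 32851 promoters of that length. TTCNNNGAA stood in 7 of the 30 (23.3%), and in 8.30% of all. The C/EBP-like TTGCNNAA stood in 6 (20%), among them that of C3, and in 10.8% of all. The E-box CACGTG, which contains an ACGTG, stood in 1 member promoter, that of C1rl, and in 7.15% of all. These matches are descriptions of letters and not of bound sites.

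In the alternative pathway Cfd was nearly lost in PX-478 livers, while for its partners Cfb, C3 and Cfp the groups overlapped. Cfd (Entrez Gene 11537) encodes factor D, the serine protease that cuts factor B once it is bound to C3b. The gene lies on chromosome 10 from 79890853 to 79892655 in mm10, on the plus strand, and its 2 basic GENCODE transcripts have 5 exons each. Saline replicates 1 to 4 held 26.6, 40.4, 13.3 and 22.6 CPM of Cfd, or 408, 466, 201 and 361 reads. PX-478 replicates 1 to 3 held 0.279, 0.756 and 0.261 CPM, or 4, 10 and 4 reads. Every saline liver lay far above every PX-478 liver. The means were 25.7 ± 11.3 CPM (SD, n = 4) and 0.432 ± 0.281 CPM (SD, n = 3), 59.5-fold lower in PX-478. The fit gave a log2 fold change of -5.89 (SE 0.50, 95% interval -6.99 to -4.80), and no other of the 13693 genes tested had a lower one.

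By the quasi-likelihood test of edgeR, 1 gene of the whole table, Cfd, passed the adjusted threshold of 0.05, which is 0.0073% of the genes tested. It was chosen for that difference, so the call is not evidence about complement. With limma-voom 0 genes passed, while 1064 had an unadjusted p under 0.05, and Cfd had a log2 fold change of -5.85 (adjusted p = 0.257). DESeq2 called 82 genes. When saline replicate 4, or either replicate 2 or replicate 3 of PX-478, was left out, edgeR called 5 genes each time, Cfd among them. Without PX-478 replicate 2, which held 10 of the 18 Cfd reads in that group, the log2 fold change was -6.53.

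**Figure D1:**
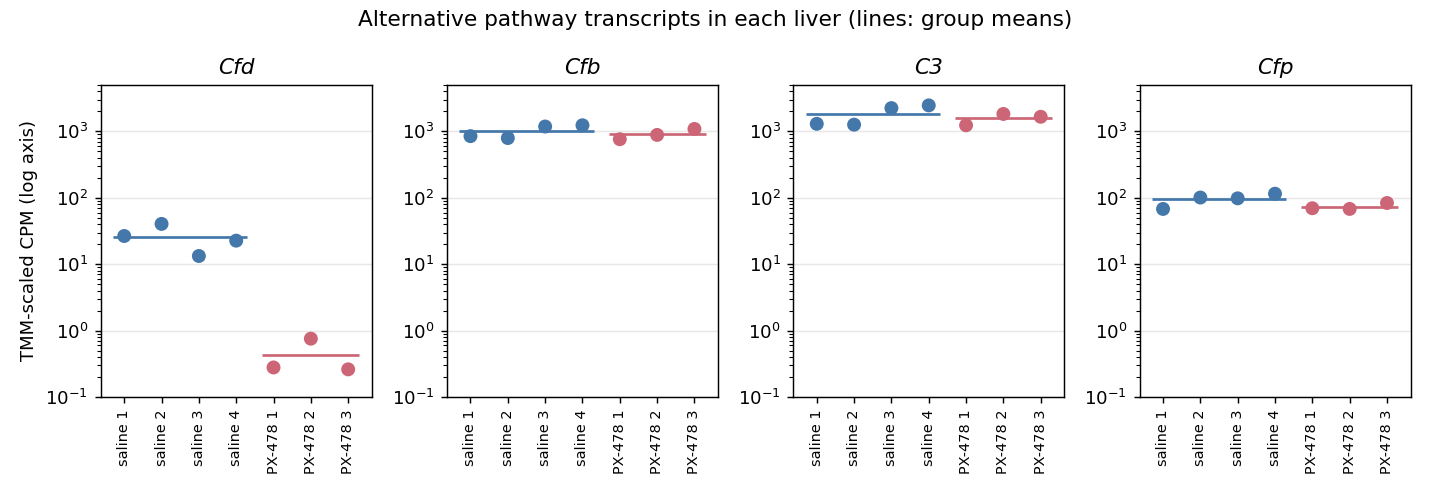
TMM-scaled CPM (log axis) of Cfd, Cfb, C3 and Cfp in each of the 4 saline and 3 PX-478 livers, with group means as lines. Cfd lies between 13.3 and 40.4 CPM in the saline livers and below 1 CPM in the PX-478 livers, while the groups overlap for the other 3 genes.

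Cfb encodes factor B, the protease of the alternative C3 convertase. Its level in saline replicates 1 to 4 was 847, 793, 1183 and 1235 CPM, and in PX-478 replicates 1 to 3 it was 761, 884 and 1087 CPM. The groups overlapped, with a log2 fold change of -0.16 (SE 0.23, 95% interval -0.66 to 0.34). C3, the central component, stood at 1299, 1261, 2240 and 2461 CPM in the saline livers and at 1234, 1828 and 1658 CPM in the PX-478 livers. Its groups overlapped as well, with a log2 fold change of -0.21 (SE 0.28). Cfp, properdin, stabilises the convertase and is made by leukocytes. It ran from 67.9 to 115 CPM in the saline livers and from 67.9 to 83.4 CPM in the PX-478 livers (log2 fold change -0.37, SE 0.21). Neither Cfb, C3 nor Cfp passed.

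For the genes next to Cfd the groups overlapped. Med16, a Mediator subunit gene that lies 2051 bases beyond Cfd, had 8.06 to 13.4 CPM in the saline livers and 7.87 to 11.1 CPM in the PX-478 livers (log2 fold change -0.18, SE 0.26, adjusted p = 0.911). Elane, the neutrophil elastase gene that ends 2637 bases before Cfd, had 8, 9, 0 and 21 reads in saline and 0, 4 and 5 in PX-478, too few to be tested. Prtn3, Plppr3, R3hdm4 and Kiss1r, the other neighbours analysed, had log2 fold changes of -0.22, 0.18, -0.30 and 0.49, each with an SE above 0.5.

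Fat cells are the best-known source of Cfd, so fat cell markers are given beside it. Of 10 on the list, 5 were found among the 14889 genes of the count table, and Adipoq, Lep, Plin1, Retn and Slc36a2 were not. The summed level of the 5 found was 267 to 441 CPM in the saline livers and 339 to 537 CPM in the PX-478 livers. Most of it was Thrsp, which hepatocytes also express. Of the 4 that were tested, 3 had a log2 fold change above 0, with a median of 0.19, and 0 passed the edgeR threshold or had an unadjusted p under 0.05. Lipe, hormone-sensitive lipase, differed by 0.37 (SE 0.32) on the log2 scale, Thrsp by 0.36 (SE 0.25) and Nrg4, a secreted growth factor, by 0.02 (SE 0.58). Fabp4, the fatty acid carrier of fat cells and macrophages, stood at 12.6 ± 3.57 CPM (SD, n = 4) and 9.43 ± 2.75 CPM (SD, n = 3), with a log2 fold change of -0.42 (SE 0.29). Cidea, a lipid droplet gene, had 12, 2, 7 and 6 reads in saline and 0, 0 and 2 in PX-478, and was below the filter. Its CPM values did not overlap between the groups and were lower in PX-478, at counts this small. The part of these cells in the Cfd result was not tested. Among factors known to act on Cfd in fat cells, Cebpa differed by -0.18 (SE 0.22) on the log2 scale. Pparg held 6.48 to 8.99 CPM in the saline livers and 3.13, 16.8 and 3.26 CPM in PX-478 replicates 1 to 3. Replicates 1 and 3 lay below all saline livers and replicate 2 above them, and the fitted difference was -0.0035 (SE 0.53). Hif1a, the target of the drug, differed by -0.06 (SE 0.21). Of the 14 transcription factors listed, 9 had a log2 fold change below 0 (50.3% of all genes tested had), and 0 passed in edgeR. At an unadjusted p under 0.05, 2 were higher, Srebf1 (0.74, SE 0.27) and Nr1h4 (0.61, SE 0.24), beside 3.48% of all genes tested.

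Of the other 36 members none passed the edgeR threshold, and the smallest adjusted p among them was 0.395. At an unadjusted p under 0.05, 5 of these 36 were lower (3.48% of all genes tested were) and 1 was higher (3.48%). DESeq2 called 1 of them, C4bp, as lower (0.247% of the genes it adjusted were) and 0 as higher (0.315%). Together with Cfd, 20 of the 37 had a log2 fold change below 0, or 54.1%, beside 50.3% of all genes tested. Their median was -0.16, beside -0.0035 over all genes tested. In the authors' deposited table, 12 members were lower and 3 higher at an unadjusted p under 0.05, where 13.1% and 12.9% of all genes were. Those shares exceed the 3.48% in each direction of the edgeR fit used here. At that p the authors' table had 1946 genes lower and 1915 higher. The edgeR fit had 954 in both directions together with 7 libraries, and 3559 with all 14 columns entered as libraries. Whether the authors' p-value counted the 2 columns of a sample as separate libraries was not tested, so these calls may not rest on 7 libraries. The groups did not overlap in 4 members, Cfd, C1qa, C4bp and Cfhr2, all lower in PX-478 (4.29% of all genes tested), and in 0 members higher in PX-478 (4.30%). Without Cfd, around which the list was drawn up, it was 3 of 36 lower.

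**Figure D2:**
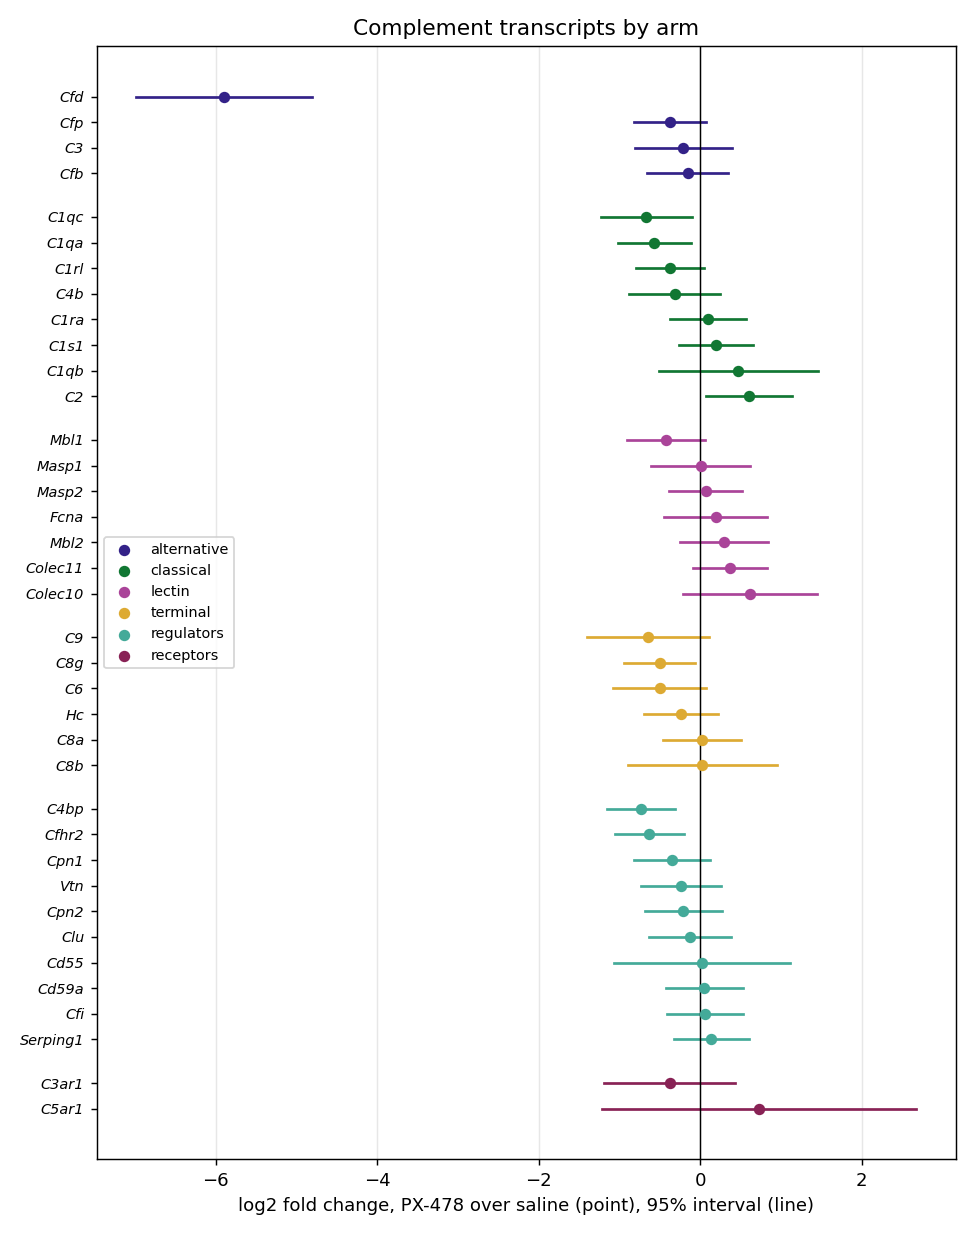
Log2 fold change between the groups, negative where PX-478 is lower (points), with 95% intervals (lines) for the 37 members, grouped by arm. Cfd stands at -5.89, and all other members lie between -0.73 and 0.73.

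In the classical pathway 4 of 8 members had a log2 fold change below 0, with a median of -0.11. C1qa, C1qb and C1qc encode the chains of C1q, which binds antibody on its target, and lie side by side on chromosome 4 from 136880126 to 136898844. C1qa stood at 53.3, 54.3, 69.0 and 78.5 CPM in the saline livers and at 35.4, 51.3 and 42.5 CPM in the PX-478 livers. All 3 PX-478 livers lay below all 4 saline livers, with a log2 fold change of -0.57 (SE 0.21). C1qc stood at 31.5, 30.5, 38.6 and 40.7 CPM and at 13.4, 22.3 and 31.2 CPM. PX-478 replicate 3 reached into the saline range, and the log2 fold change was -0.66 (SE 0.26), or -0.40 without PX-478 replicate 1.

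C1qb, the remaining chain, had a log2 fold change of the other sign. It held 2.47, 1.13, 1.85 and 2.82 CPM in the saline livers and 3.07, 2.27 and 3.33 CPM in the PX-478 livers (log2 fold change 0.47, SE 0.45), so its groups overlapped. Per kb of exon, the counted level of C1qa was 22.5 to 50.4 times that of C1qb in saline livers and 12.1 to 23.6 times in PX-478 livers. The ratio of C1qa to C1qc per kb was 1.95 to 2.23 in saline and 1.58 to 3.06 in PX-478. C1q protein carries its chains in equal numbers. Whether the low C1qb count, 13 to 51 reads in a library, covers its whole transcript was not tested.

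Macrophages are the known source of C1q, and their markers are given beside it. Of 11 macrophage markers 11 had a log2 fold change below 0 (50.3% of all genes tested had), with a median of -0.43. In edgeR 0 passed the threshold, while 4 had an unadjusted p under 0.05 (3.48% of all genes tested were lower at that p). DESeq2 called Lyz2 (adjusted p = 0.0034) and Cd68 (adjusted p = 0.0206) as lower, beside 0.247% of the genes it adjusted. In 3 of the 11 the groups did not overlap, all lower in PX-478 (4.29% of all genes tested). The summed level of the 11 markers was 364 to 692 CPM in the saline livers and 344 to 465 CPM in the PX-478 livers. Lyz2, lysozyme, stood at 56.6 ± 13.6 CPM and 26.0 ± 2.18 CPM, while Csf1r, the receptor that macrophages need to survive, stood at 34.4 ± 8.29 CPM and 34.1 ± 2.84 CPM (SD, n = 4 and 3). The part of macrophage number in the C1qa and C1qc values was not tested.

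C2, the protease that joins C4b in the classical convertase, was the 1 member with an unadjusted p under 0.05 and a higher level in PX-478. Its values were 129, 112, 80.6 and 152 CPM in the saline livers and 148, 153 and 239.5 CPM in the PX-478 livers. The groups touched, with saline replicate 4 between the lower PX-478 livers, and the log2 fold change was 0.61 (SE 0.25), or 0.35 without PX-478 replicate 3. C2 lies 88 bases from Cfb on chromosome 17, on the same strand, and the sources do not state how reads that span both were counted. C4b, which encodes C4, ran from 1398 to 2673 CPM in the saline livers and from 1344 to 1982 CPM in the PX-478 livers (log2 fold change -0.31, SE 0.26). Of the proteases that C1q activates, C1ra differed by 0.09 (SE 0.22) on the log2 scale and C1s1 by 0.19 (SE 0.21), and the related C1rl differed by -0.37 (SE 0.19). C4b, C1ra and C1s1 have close copies in C4a, C1rb and C1s2, so the split of reads between copies is uncertain.

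The lectin pathway held 6 of 7 members with a log2 fold change above 0, with a median of 0.19, and none had an unadjusted p under 0.05. Its recognition molecules bind sugars on microbes. Mbl1 and Mbl2, the mannose-binding lectins, had log2 fold changes of opposite sign, -0.42 (SE 0.22) and 0.30 (SE 0.25). Mbl1 ran from 114 to 180.1 CPM in the saline livers and from 81.9 to 136 CPM in the PX-478 livers. Mbl2 ran from 64.0 to 104 CPM and from 64.4 to 132 CPM. The collectin genes Colec10 and Colec11 differed by 0.62 (SE 0.38) and 0.37 (SE 0.21) on the log2 scale, and ficolin A, Fcna, by 0.19 (SE 0.29). Masp1 and Masp2, the proteases that these lectins carry, differed by 0.0048 (SE 0.28) and 0.07 (SE 0.21) on the log2 scale.

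Of the 6 terminal members, which form the pore, 4 had a log2 fold change below 0, with a median of -0.37. Hc, which encodes C5, the source of the attractant C5a, stood at 979, 691, 1098 and 1019 CPM in the saline livers and at 777, 787 and 846 CPM in the PX-478 livers. Saline replicate 2 lay below all PX-478 livers, and the log2 fold change was -0.24 (SE 0.21). C8g, the lipocalin-like chain of C8, stood at 386, 279.7, 379 and 339.8 CPM and at 199, 246 and 288 CPM. PX-478 replicate 3 lay above saline replicate 2, and the log2 fold change was -0.50 (SE 0.20). C8g overlaps Fbxw5 in the annotation, so some of its reads may belong to that gene.

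Of the other chains of C8, C8a differed by 0.02 (SE 0.22) on the log2 scale and C8b by 0.03 (SE 0.41). The per-kb ratio of C8g to C8a was 1.09 to 1.34 in saline livers and 0.758, 1.05 and 0.806 in PX-478 livers. That of C8g to C8b was 5.88 to 12.1 and 4.44 to 9.15, and that of C8a to C8b was 4.83 to 9.03 and 4.24 to 12.1. These ratios restate the levels of the chains and were not tested. C8a overlaps Fyb2 in the annotation, so some of its reads may belong to that gene. C6 and C9 differed by -0.50 (SE 0.26) and -0.64 (SE 0.34) on the log2 scale. C9, the subunit that polymerises into the pore, stood at 73.7, 207 and 128 CPM in PX-478 replicates 1 to 3, against 124 to 268 CPM in saline. PX-478 replicate 2 had the highest C9 of its group, so leaving it out lowers the group's mean. The log2 fold change of C9 was then -1.08 (SE 0.33).

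Among the 10 regulators 6 had a log2 fold change below 0, with a median of -0.17, and the 2 lowest were C4bp and Cfhr2. C4bp, C4b-binding protein, takes apart the classical convertase and lies on chromosome 1 from 130635921 to 130661657. It stood at 219.9, 167, 198 and 226 CPM in the saline livers and at 102, 128 and 136 CPM in the PX-478 livers. The lowest saline liver lay above the highest PX-478 liver, with a log2 fold change of -0.73 (SE 0.19, 95% interval -1.15 to -0.31). DESeq2 gave it an adjusted p of 0.0403 and edgeR one of 0.395.

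Cfhr2 encodes a secreted complement regulator and lies on chromosome 1 from 139810292 to 139858699. Its values were 253, 191, 252 and 214 CPM in the saline livers and 168, 119.8 and 153 CPM in the PX-478 livers. The groups did not overlap, and the log2 fold change was -0.63 (SE 0.20). Cfhr2 belongs to a family of close copies, so its reads may be shared with relatives. Hepatocytes make both proteins, and 8 of the 9 hepatocyte markers had a log2 fold change below 0 as well (50.3% of all genes tested had), with a median of -0.32. Among them Ttr, transthyretin, differed by -0.57 (SE 0.22) without overlap between the groups. The part of hepatocyte RNA in the C4bp and Cfhr2 values was not tested.

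**Figure D3:**
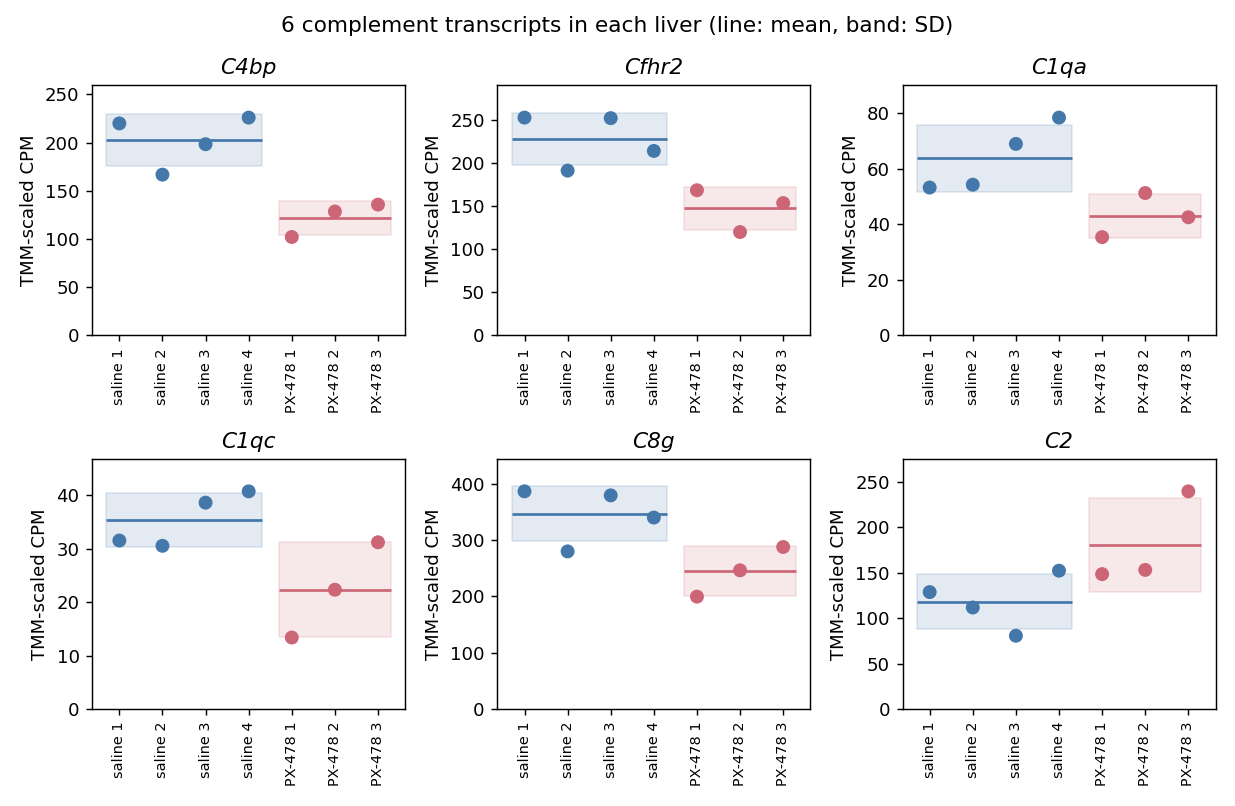
TMM-scaled CPM of C4bp, Cfhr2, C1qa, C1qc, C8g and C2 in each liver, with the group mean as a line and 1 SD as a band. The PX-478 livers lie below all saline livers for C4bp, Cfhr2 and C1qa, and the groups overlap for C1qc, C8g and C2.

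None of the remaining regulators had an unadjusted p under 0.05. Vtn, vitronectin, and Clu, clusterin, which both keep the pore from inserting, differed by -0.24 (SE 0.23) and -0.12 (SE 0.23) on the log2 scale. Serping1, the C1 inhibitor, differed by 0.14 (SE 0.21) and Cfi, the protease that inactivates C3b and C4b, by 0.06 (SE 0.22). Cpn1 and Cpn2, the chains of the carboxypeptidase that trims anaphylatoxins, differed by -0.34 (SE 0.22) and -0.21 (SE 0.22) on the log2 scale. The membrane-bound Cd59a stood at 160.2 ± 20.6 CPM in the saline livers and 166 ± 48.0 CPM in the PX-478 livers, and Cd55 at 3.93 ± 2.66 and 3.98 ± 0.373 CPM (SD, n = 4 and 3). The receptors for C3a and C5a were low in every liver. C3ar1 had 3.26 to 5.76 CPM in the saline livers and 2.48 to 4.08 CPM in the PX-478 livers, and C5ar1 had 0 to 2.00 and 1.11 to 2.50 CPM.

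Of 23 further complement genes on a second list 17 were tested, of which 11 had a log2 fold change below 0 (64.7%, beside 50.3% of all genes tested), with a median of -0.07. In edgeR 0 passed the threshold. At an unadjusted p under 0.05, 2 were lower, Vsig4 among them (3.48% of all genes tested were). Vsig4, the receptor through which Kupffer cells take up C3b-coated particles, ran from 11.5 to 20.2 CPM in the saline livers and from 6.05 to 9.47 CPM in the PX-478 livers, without overlap (log2 fold change -0.94, SE 0.27, adjusted p = 0.481). C4a, the close copy of C4b, had 1544 to 15428 reads in saline, the most in replicate 4, and 1932 to 5136 in PX-478.

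Within the saline group, whose levels do not use the difference between groups, the members spanned a wide range. Per kb of exon, 31 members lay above 10 CPM and 6 below 2 CPM, with none between. Vtn was the most abundant at 995 ± 171 CPM per kb (SD, n = 4). Cfb, C4b and C3 followed at 369, 360 and 353 CPM per kb, closer to each other than the spread between livers. Cfd lay at 27.9 ± 12.2 CPM per kb, next to C1qc at 29.4 ± 4.22 and Masp2 at 23.7 ± 4.54. The 6 below 2 CPM per kb were C1qb, Cd55, Colec10, Masp1, C3ar1 and C5ar1. Among the 27 members at 50 CPM or more, the coefficient of variation over the saline livers was 9.77% to 39.5%, with a median of 19.1%, beside 16.9% over all 2215 tested genes of that level. Cfd, with a saline mean of 25.7 CPM, lay below that level and so outside both sets. Its coefficient of variation was 43.8%.

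**Figure D4:**
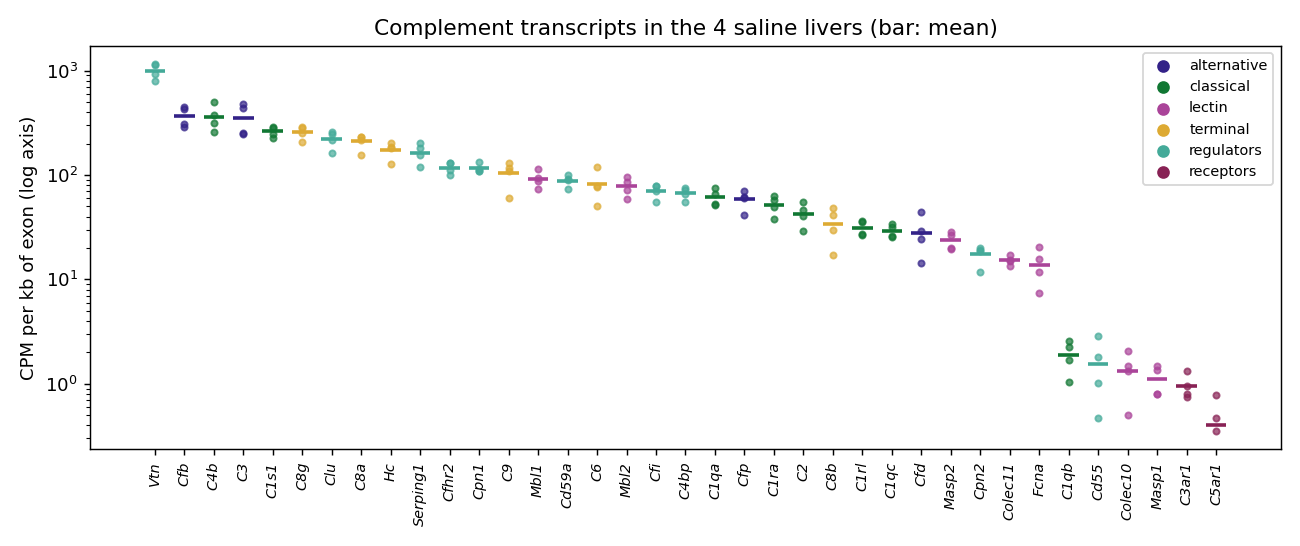
CPM per kb of exon (log axis) of the 37 members in the 4 saline livers, ordered by their mean (bars), with colours for the arms. Vtn leads at 995 CPM per kb and 6 members lie below 2. The liver in which C5ar1 had 0 reads has no point.

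Livers of the same group differed in the level of many members at once. Saline replicate 2 had the lowest level of its group in 21 of the 37 members, beside 24.3% of all genes tested, and saline replicate 4 the highest in 17, beside 22.2%. PX-478 replicate 1 was the lowest of its group in 21 members, beside 31.8% of all genes tested, and PX-478 replicate 3 the highest in 20, beside 33.6%. The median deviation of the members from their group mean, on log2(CPM + 1), was 0.11, -0.27, 0.13 and 0.18 in saline replicates 1 to 4 and -0.22, -0.01 and 0.17 in PX-478 replicates 1 to 3. Over all genes tested that median lay between -0.02 and 0.03 in every library. Cfd was among the 5 members whose highest saline level was in saline replicate 2, beside 23.2% of all genes tested.

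**Figure D5:**
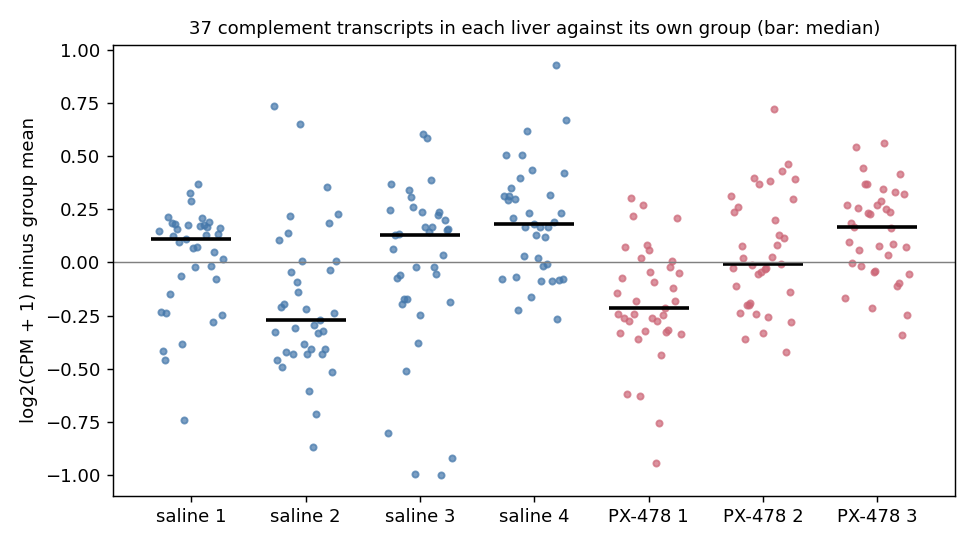
Deviation of log2(CPM + 1) from the mean of the liver's own group, for each of the 37 members (points) in each liver, with the median as a bar. The medians are lowest in saline replicate 2 (-0.27) and PX-478 replicate 1 (-0.22).

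Acute phase genes, which hepatocytes express on cytokine signals, had the extremes of their summed level in the same livers. The summed level of 12 such genes was 9558, 6643, 11030 and 15041 CPM in saline replicates 1 to 4 and 5000, 7950 and 9863 CPM in PX-478 replicates 1 to 3. By this sum, saline replicate 2 and PX-478 replicate 1 were lowest and saline replicate 4 and PX-478 replicate 3 highest in their groups. Hp and Hpx made up most of each sum. Not every gene had its extremes in these livers, with Saa3 and Fgb among the exceptions. All 12 had a log2 fold change below 0 (50.3% of all genes tested had), with a median of -0.86. In edgeR 0 passed the threshold, while 4 had an unadjusted p under 0.05 (3.48% of all genes tested were lower at that p). DESeq2 called Saa3 as lower (adjusted p = 0.043), beside 0.247% of the genes it adjusted. In 2 of the 12 the groups did not overlap, both lower in PX-478 (4.29% of all genes tested). Saline replicate 4 had the highest C3, C4b and C4bp of its group, so leaving it out lowers the saline mean of these genes. Without that liver the log2 fold change was -0.03 for C3, -0.12 for C4b, -0.68 for C4bp, -0.66 for Cfhr2 and -0.51 for C8g. The summed hepatocyte markers were also lowest in saline replicate 2 and PX-478 replicate 1 of their groups, but highest in saline replicate 1 and PX-478 replicate 2. The part of these lists in the complement values was not tested.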

How the data were processed

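RNA from 7 livers, 4 saline and 3 PX-478, was sequenced, and and the sample titles gave each library its group and number. The authors deposited whole-number counts of reads per gene, 2 columns per sample. The submitters' processing notes list featureCounts, edgeR and the build mm10, with no version. No aligner is given in the sources used here, nor any use of strand. The authors' deposited table also gives their log2 fold change and an unadjusted p-value. Per the file headers, another 7 columns hold averages per sample and were not used.

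The columns of a sample differed by less than the sampling noise (chi-square per gene 0.291 to 0.765, against 49.1 to 145 between libraries of a group), so each pair was averaged, rounded and counted as 1 sample. Every gene had at least 0.5 CPM in its second-highest column. Genes were filtered with filterByExpr, scaled with the TMM method and tested with edgeR 4.0.16 (quasi-likelihood F test, robust, no covariates), with Benjamini-Hochberg adjustment over all genes and a threshold of 0.05. The SE of a fold change was derived from its F statistic. In 1 library 3 reads equal 0.188 to 0.260 CPM, a floor that covers counting error only. The p-values set the group difference against the spread between libraries, 1 per mouse, part of which may be technical. Nothing in the labels says that the animals of a group were raised or handled apart, so the p-values are not extended beyond these mice. Lengths are the joined exons of the GENCODE M21 basic set (GRCm38, the assembly that mm10 names), matched on Entrez ID. Gene positions and promoters are RefSeq's, build GRCm38.p6.

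The members, arms and other lists were chosen with earlier results of these data known. Named in every sample were members with an unadjusted p under 0.05 or no overlap between groups, and Cfd, Cfb, C3 and Hc. Other lists are given by counts. Of markers tested, 2 of 7 endothelial, 2 of 8 stellate, 3 of 5 cholangiocyte and 2 of 2 neutrophil had a log2 fold change below 0. The 1 tested marker of exocrine pancreas lay above 0. Of all genes tested, 50.3% lay below 0. None of these markers passed in edgeR. At an unadjusted p under 0.05, 2 endothelial ones were higher, beside 3.48% of all genes tested. 1 gene of the second complement list is not reported here by name. Alternatives were DESeq2 1.42.0, limma-voom (limma 3.58.1), other scalings, no filter, a replicate block, other uses of the columns and leaving out each library. Entering all 14 columns as libraries was chosen after seeing the data.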

Additional observations from a re-analysis of the deposited data

Results flagged for a closer look

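In 2 of the 37 members 1 saline liver stood apart, by the gap to its nearest neighbour as a share of the group's whole range (Dixon's 95% limit for 4 samples). Chance puts about 1 in 20 groups past that limit. The share was 0.838 for Cpn1, the catalytic chain of carboxypeptidase N, which was highest in saline replicate 3 at 243 CPM against 199.7 to 207 CPM in the others. For Cpn2, the carrier chain of the same enzyme, it was 0.832, with saline replicate 2 lowest at 53.8 CPM against 84.9 to 91.2 CPM.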

How the results depend on the processing

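The number of genes past the threshold was 1 in the edgeR test. It was 82 with DESeq2, 0 with limma-voom, 5 with library size alone, 3 with a replicate block and 1360 with all 14 columns entered as libraries, a setting that counts each sample more than once. Leaving out 1 library gave 1 to 5 genes. The median log2 fold change of the members was -0.16, with -0.013 for library size alone, which moved the median of all genes to 0.15, and -0.068 with the replicate block. It ran from -0.26 without saline replicate 2 to -0.042 without PX-478 replicate 1. Leaving out saline replicate 4 made it -0.048. The number of members with a log2 fold change below 0 was 19 to 26 over all 18 settings. Same-numbered libraries did not deviate together (correlations -0.021, -0.074 and -0.0017), so the numbers were not taken as pairs. Cfd had a log2 fold change of -6.53 to -5.59 over the 18 settings and passed in 17, the exception being limma-voom. C4bp, Cfhr2, C1qa, C1qc, C8g and C2 kept their sign in all 18, while C3 ran from -0.35 without saline replicate 2 to 0.0081 with the replicate block and Cfb from -0.30 without PX-478 replicate 3 to -0.013 with library size alone. With all 14 columns as libraries C4bp, Cfhr2, C1qa, C1qc, C8g and C2 passed. At these depths C5ar1 and C1qb had at most 51 reads in a library, which limits their precision.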
